A study of Homo sapiens with 12 samples.

Results

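The set described here holds 32 genes of glycolysis and of the response to low oxygen, out of 20033 protein-coding genes measured in the same way. The genes were taken by name, as enzymes of the pathway, parts of the oxygen sensor and well known hypoxia targets. Open chromatin was profiled by ATAC-seq, in which a transposase cuts and tags accessible DNA, in KYSE150 and KYSE510, established lines of human oesophageal squamous carcinoma. There were 4 groups of 3 libraries, 12 in all: control cells of each line, and cells of each line after silencing of HCP5, a long non-coding RNA. The title of the series ties HCP5 to apoptosis and, by way of UTP3, to c-Myc, and the comparison of silenced with control cells asks whether accessibility moved with HCP5. Each line is a single established cell line grown in RPMI-1640 with serum. The labels give neither the way HCP5 was silenced nor the kind of control, and do not say whether libraries came from separate cultures, so the p-values measure the spread between these libraries, which may be technical. Oxygen was not varied, as far as the labels say.

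For every gene and library, the tallest deposited peak with a height of 3 or more inside the gene or within 1 kb of either end was taken. Height is the pileup the authors deposited for a peak, a whole number that is not scaled between libraries. Levels were therefore compared as ranks within a library. A percentile is the rank of a gene among all 20033 as a percent, with genes lacking a peak tied at the bottom. A longer gene has more room for a tall peak. The median span was 27.1 kb for the 32 genes and 24.1 kb for all genes.

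Glycolysis splits glucose into pyruvate, and cells short of oxygen, as well as many tumour cells, run it faster and turn the pyruvate into lactate. Oxygen is read by the EGLN prolyl hydroxylases, which mark HIF-1α for destruction through VHL when oxygen is present. Without oxygen HIF-1α persists, pairs with ARNT and binds the core ACGTG or GCGTG at genes for glucose uptake, glycolysis, pH control and blood vessel growth, EGLN3 among them. c-Myc, the factor named in the title, binds the E-box CACGTG, which contains the ACGTG core, and is known for driving several of the same enzymes.

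Some of the results below concern regions at the annotated starts of a few genes. Others, such as those of PFKFB3, PFKP and PKM, concern regions inside the gene, whose sequences are not shown. The 250 bases before the starts of those few genes are shown, 5′ to 3′ on the gene's own strand, from RefSeq (GRCh38.p14). Capitals mark each match to ACGTG or GCGTG on either strand, which reads CACGT or CACGC where the match is on the other strand. A CACGTG holds a match on both strands. The first 4 had no peak, or hardly any, in KYSE150, and the last 2 ranked higher in KYSE510 control cells.
EGLN3 (chr14:33951075-33951324, minus strand): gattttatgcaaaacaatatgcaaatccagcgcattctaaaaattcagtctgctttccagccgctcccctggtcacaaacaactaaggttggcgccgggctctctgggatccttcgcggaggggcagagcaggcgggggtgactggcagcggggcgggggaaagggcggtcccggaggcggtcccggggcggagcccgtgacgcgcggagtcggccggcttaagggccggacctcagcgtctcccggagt
CA9 (chr9:35673678-35673927, plus strand): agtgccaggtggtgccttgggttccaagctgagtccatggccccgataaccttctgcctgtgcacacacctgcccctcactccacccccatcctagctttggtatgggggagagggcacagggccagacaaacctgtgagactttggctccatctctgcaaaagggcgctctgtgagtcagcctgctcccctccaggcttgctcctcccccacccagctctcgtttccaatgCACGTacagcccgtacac
ALDOC (chr17:28576896-28577145, minus strand): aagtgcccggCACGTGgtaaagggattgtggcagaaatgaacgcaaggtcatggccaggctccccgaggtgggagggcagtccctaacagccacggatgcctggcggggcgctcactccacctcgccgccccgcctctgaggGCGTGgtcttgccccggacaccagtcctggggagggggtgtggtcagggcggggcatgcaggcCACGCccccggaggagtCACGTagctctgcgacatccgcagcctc
BNIP3 (chr10:131981924-131982173, minus strand): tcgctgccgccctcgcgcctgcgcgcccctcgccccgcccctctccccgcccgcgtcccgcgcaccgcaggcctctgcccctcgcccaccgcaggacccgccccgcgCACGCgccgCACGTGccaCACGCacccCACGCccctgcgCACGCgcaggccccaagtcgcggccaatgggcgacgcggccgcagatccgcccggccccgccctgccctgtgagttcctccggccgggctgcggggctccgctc
HIF1A (chr14:61695263-61695512, plus strand): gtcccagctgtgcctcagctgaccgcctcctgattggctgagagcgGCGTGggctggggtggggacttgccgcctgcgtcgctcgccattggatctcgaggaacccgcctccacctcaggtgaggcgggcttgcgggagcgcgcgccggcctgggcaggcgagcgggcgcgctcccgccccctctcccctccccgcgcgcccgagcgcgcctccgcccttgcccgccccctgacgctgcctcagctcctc
ANKRD37 (chr4:185396591-185396840, plus strand): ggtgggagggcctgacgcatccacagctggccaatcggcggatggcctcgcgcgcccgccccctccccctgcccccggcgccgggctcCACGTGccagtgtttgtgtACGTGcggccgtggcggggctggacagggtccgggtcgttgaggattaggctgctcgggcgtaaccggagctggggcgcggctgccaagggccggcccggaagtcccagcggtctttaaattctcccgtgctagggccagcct

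The printed stretch of BNIP3 held 6 matches to the HIF core and that of ALDOC held 5. ANKRD37 held 3, CA9 and HIF1A held 1 each, and EGLN3 held 0. The RefSeq promoter table matched 30 of the 32 genes, with 53 windows of 300 bases around their starts; VEGFA and NDRG1 are named only. The core, a short and common run of letters, was found in 36 of the 53 windows (67.9%) and in 54.7% of all 22196 windows. At the level of genes it was found for 28 of 30, against 61.9% of the 15840 genes in the table. Genes of the set had more windows each, 53 for 30 genes against 22196 for 15840. A gene with more windows has more room for a match, so the shares of genes are not like for like. The CACGTG E-box was found in 8 of the 53 windows (15.1%) and in 8.34% of all windows. The windows of the set were richer in G and C than those of all genes, with medians of 68.7% and 62.3%. These matches are descriptions of the letters and say nothing of binding.

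The 12 libraries differed by line more than by treatment. KYSE150 lists held 546453 to 629921 peaks on the 24 chromosomes, most of them of height 1 or 2, and 52869 to 63295 peaks of height 3 or more. KYSE510 lists held 115761 to 135841 peaks and 104208 to 123109 of height 3 or more. Read totals were not used here and depth is unknown. The background implied by the deposited fold enrichments, a stand-in for depth, ran from 0.0826 to 0.108 height units for KYSE150 and from 0.180 to 0.217 for KYSE510, and its part in the differences between the lines was not tested. A peak was found at 68.6 to 72.4% of genes in a KYSE150 library and at 79.9 to 82.0% in a KYSE510 library. Of 8 squamous markers, 5 had a peak in every KYSE150 library and 7 in every KYSE510 library, and KRT14 and SOX2 had none in KYSE150. The hepatocyte genes ALB and TTR had none in any library. The other hepatocyte marker, APOA1, had heights of 8 to 19 in all 6 KYSE510 libraries and of at most 4 in 4 KYSE150 libraries. All 3 endothelial markers had a peak in every library, so a peak in or near a gene does not by itself mark the cell type. At HCP5 itself the tallest peaks had heights of 0 to 4 in KYSE150 and 8 to 23 in KYSE510, which measures accessibility and does not check the silencing of the RNA.

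Most of the set was accessible in both lines and stood high among all genes. A peak was present in all 6 KYSE150 libraries for 27 of the 32 genes, against 60.9% of all genes. It was present in all 6 KYSE510 libraries for 31 genes, against 72.6% of all genes, and in all 12 libraries for 27 genes, against 59.4%. The median gene of the set stood at percentile 69.9 in KYSE150 and 72.9 in KYSE510, where the median over all genes was 50.1 and 49.9. With the measure limited to 1 kb around the 2 ends of a gene, a window that does not grow with its length, the medians of the set were 66.7 and 73.2. The plot of heights by gene shows this spread.

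**Figure D1:**
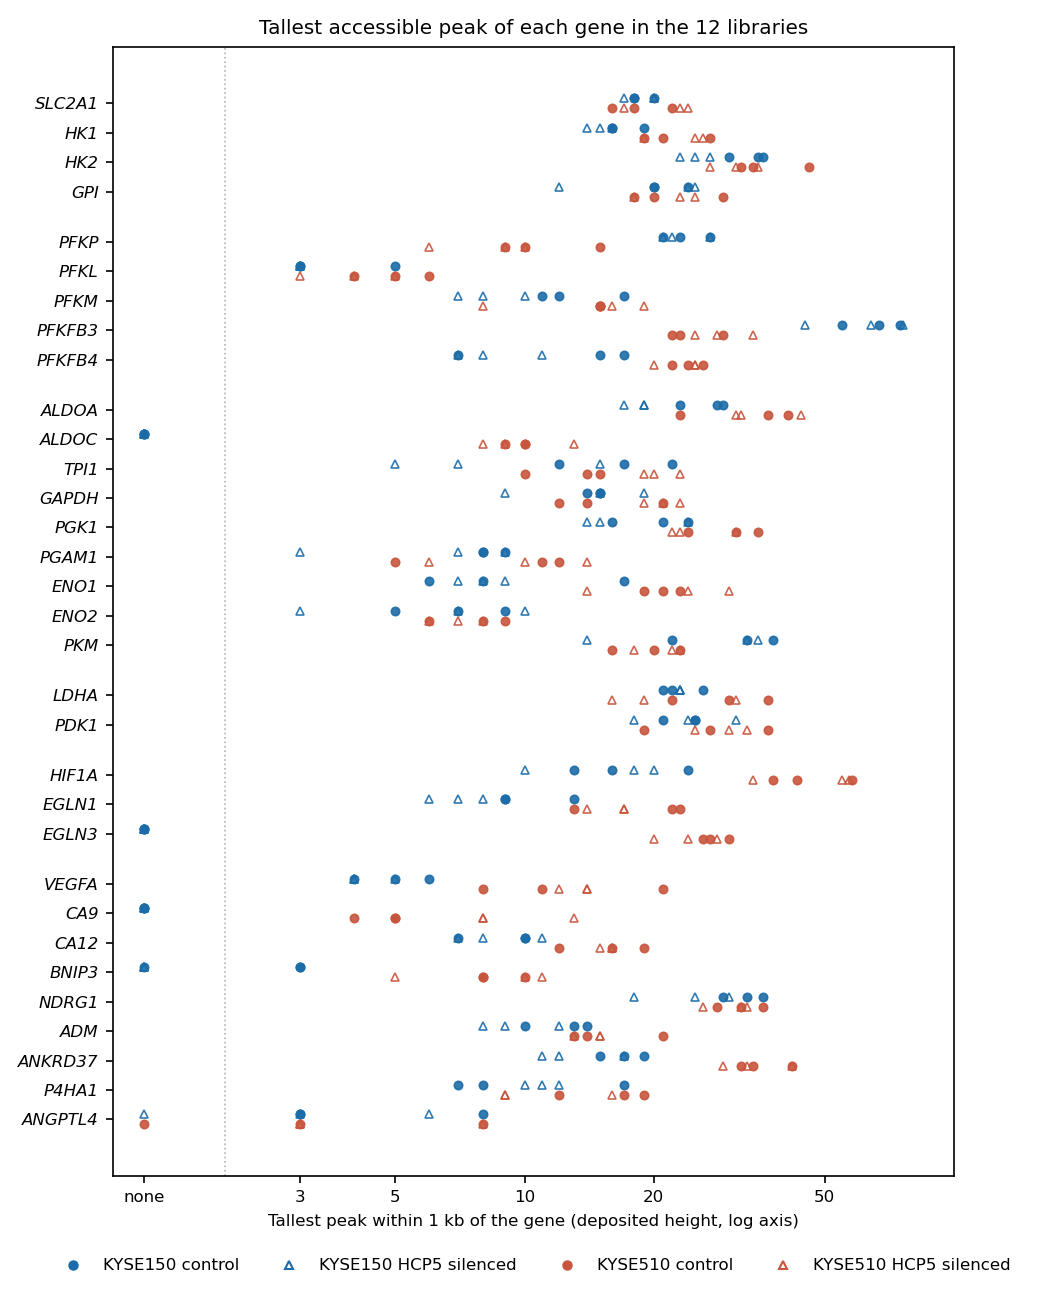
Height of the tallest peak (log axis, "none" where no peak reached 3) of the 32 genes, grouped by role, in each of the 12 libraries. Filled circles are control and open triangles HCP5-silenced libraries, KYSE150 in blue and KYSE510 in red, and points of equal height overlap. EGLN3, CA9 and ALDOC have no KYSE150 point above "none", PFKFB3 and PFKP are taller in KYSE150, and control and silenced points of a line mostly intermingle.

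The uptake of glucose and its first steps were accessible in every library. SLC2A1, the main glucose transporter of many tumours, had heights of 17 to 20 in KYSE150 and 16 to 24 in KYSE510. HK1, a broadly expressed hexokinase, ranged from 14 to 19 and from 19 to 27, and GPI, which turns glucose-6-phosphate into fructose-6-phosphate, from 12 to 25 and from 18 to 29. HK2, the hexokinase induced in tumours and by hypoxia, had the highest mean percentile of the set, 92.7 over the 12 libraries. Its heights in KYSE150 were 35, 36 and 30 in control and 27, 25 and 23 in silenced libraries. In KYSE510 they were 46, 32 and 34 in control and 35, 27 and 31 in silenced libraries. The silenced heights of HK2 in KYSE150 were all below the control heights, but its ranks overlapped, and its tallest region lay 10016 bases downstream of the nearest annotated start.

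The phosphofructokinase step, the committed step of glycolysis, held 2 of the 5 genes called between the lines, PFKFB3 and PFKP. PFKFB3, which makes the fructose bisphosphate that activates phosphofructokinase, was the highest of the set in KYSE150, at percentiles 99.2 to 99.9. Its heights were 55, 67 and 75 in KYSE150 control, 76, 64 and 45 in KYSE150 silenced, 29, 23 and 22 in KYSE510 control and 25, 28 and 34 in KYSE510 silenced libraries. Every KYSE150 library was above every KYSE510 library. PFKP, the platelet form of the enzyme, had heights of 23, 21 and 27 in KYSE150 control, 27, 22 and 21 in KYSE150 silenced, 15, 9 and 10 in KYSE510 control and 6, 10 and 9 in KYSE510 silenced libraries. Here too the lines did not overlap, and KYSE150 was higher.

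The muscle form PFKM had heights of 11, 12 and 17 in KYSE150 control and 8, 10 and 7 in silenced libraries. In KYSE510 the PFKM heights were 15, 15 and 15 in control and 16, 8 and 19 in silenced libraries, so the groups overlapped. The liver form PFKL was near the threshold throughout, with 3, 3 and 5 then 3, 3 and 3 in KYSE150 control and silenced libraries. PFKL had 6, 5 and 4 then 3, 4 and 5 in those of KYSE510. PFKFB4, a relative of PFKFB3 that is also induced by hypoxia, ranged from 7 to 17 in KYSE150 and from 20 to 26 in KYSE510.

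Of the 9 genes of lower glycolysis, 8 had a peak in every KYSE150 library and all 9 in every KYSE510 library. ALDOA, the main aldolase of most cells, had the highest mean percentile of them over the 12 libraries, 89.9, although PKM was higher in KYSE150. ALDOA had heights of 29, 23 and 28 in KYSE150 control and 19, 19 and 17 in silenced libraries. In KYSE510 ALDOA had 41, 23 and 37 in control and 32, 31 and 44 in silenced libraries. The silenced heights of ALDOA lay below the control heights in KYSE150 and overlapped them in KYSE510. ALDOC, the brain form of aldolase, had no peak of height 3 in any KYSE150 library, and heights of 10, 9 and 10 in control and 13, 9 and 8 in silenced KYSE510 libraries.

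TPI1, which interconverts the triose phosphates, had heights of 12, 17 and 22 in KYSE150 control and 15, 5 and 7 in silenced libraries. In KYSE510 TPI1 had 14, 10 and 15 in control and 23, 20 and 19 in silenced libraries. The KYSE510 groups of TPI1 did not overlap, and the KYSE150 groups did. GAPDH had 15, 14 and 15 then 19, 9 and 15 in KYSE150 control and silenced libraries. GAPDH had 21, 14 and 12 then 23, 21 and 19 in those of KYSE510. PKM, the pyruvate kinase of most tumours, had 22, 33 and 38 then 35, 14 and 33 in KYSE150 control and silenced libraries. PKM had 20, 16 and 23 then 23, 22 and 18 in those of KYSE510. In 5 of 6 KYSE150 libraries PKM had a height of 22 or more, and the height of 14 in a silenced library stood apart.

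PGK1, which makes ATP from bisphosphoglycerate, ranged from 14 to 24 in KYSE150 and from 22 to 35 in KYSE510. The mutase PGAM1 ranged from 3 to 9 and from 5 to 14. The enolase ENO1 ranged from 6 to 17 and from 14 to 30, and the neuronal enolase ENO2 from 3 to 10 and from 6 to 9. Pyruvate is reduced to lactate by LDHA, which ranged from 21 to 26 in KYSE150 and from 16 to 37 in KYSE510. PDK1, which inhibits pyruvate dehydrogenase and so limits the use of pyruvate in the citric acid cycle, had 25, 21 and 25 then 31, 24 and 18 in KYSE150 control and silenced libraries. PDK1 had 37, 19 and 27 then 30, 33 and 25 in those of KYSE510, and its groups overlapped in both lines.

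Of the 3 oxygen sensing genes, HIF1A and EGLN3 stood higher in KYSE510 with no overlap between the lines. HIF1A, the gene of HIF-1α, had heights of 13, 16 and 24 in KYSE150 control, 20, 18 and 10 in KYSE150 silenced, 58, 38 and 43 in KYSE510 control and 55, 34 and 57 in KYSE510 silenced libraries. It was the highest of the set in KYSE510, at percentiles 92.3 to 98.2, and number 12 in KYSE150. EGLN1, the main oxygen sensor, had 9, 9 and 13 then 8, 7 and 6 in KYSE150 control and silenced libraries. EGLN1 had 23, 13 and 22 then 17, 17 and 14 in those of KYSE510. EGLN3, itself a HIF target, had no peak of height 3 in any KYSE150 library. In KYSE510 EGLN3 had 30, 26 and 27 in control and 24, 20 and 28 in silenced libraries, at percentiles 77.3 to 87.2.

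Among the 9 hypoxia targets of other function, NDRG1, a stress-induced growth regulator, was high in both lines. Its heights were 36, 29 and 33 then 30, 25 and 18 in KYSE150 control and silenced libraries. NDRG1 had 36, 32 and 28 then 32, 26 and 33 in those of KYSE510. ANKRD37, a small ankyrin protein known mainly as a HIF target, had 17, 15 and 19 then 11, 12 and 17 in KYSE150. ANKRD37 had 42, 34 and 32 then 42, 29 and 33 in KYSE510, and the lines did not overlap. P4HA1, a collagen prolyl hydroxylase subunit, had 8, 7 and 17 then 10, 11 and 12 in KYSE150. P4HA1 had 19, 12 and 17 then 16, 9 and 9 in KYSE510.

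VEGFA, the vascular growth factor, ranged from 4 to 6 in KYSE150 and from 8 to 21 in KYSE510. The carbonic anhydrase CA12 ranged from 7 to 11 and from 12 to 19, and ADM, the vasodilator adrenomedullin, from 8 to 14 and from 13 to 21. CA9, the hypoxia-induced carbonic anhydrase that buffers tumour cell pH, had no peak of height 3 in KYSE150. In KYSE510 CA9 had heights of 5, 5 and 4 in control and 8, 8 and 13 in silenced libraries, which did not overlap. BNIP3, a mitochondrial protein of mitophagy and cell death, reached the threshold in KYSE150 in control libraries 2 and 3 with a height of 3 in each. Its KYSE510 heights were 8, 10 and 8 in control and 11, 5 and 10 in silenced libraries. ANGPTL4, a secreted inhibitor of lipoprotein lipase, had 3, 3 and 8 then 3, 0 and 6 in KYSE150 and 8, 3 and 0 then 3, 8 and 3 in KYSE510, where 0 stands for no peak.

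The order of the set was not the same in the 2 lines. In KYSE150 the highest 5 by median percentile were PFKFB3, PKM, NDRG1, HK2 and PFKP, and in KYSE510 they were HIF1A, HK2, ANKRD37, ALDOA and NDRG1. The medians of the 5 KYSE150 leaders ran from 90.8 to 99.8, and the ranges of PKM, NDRG1, HK2 and PFKP overlapped each other. In KYSE510 the medians of HIF1A, HK2, ANKRD37, ALDOA and NDRG1 ran from 89.4 to 96.4, and each neighbouring pair overlapped. PFKP moved from place 5 to place 25, and EGLN3 from a shared last place to place 9. The lowest 5 over the 12 libraries were CA9, PFKL, ANGPTL4, ALDOC and BNIP3, with mean percentiles of 26.5 to 32.3.

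ALDOC, CA9 and EGLN3 had a peak in all 6 KYSE510 libraries and in no KYSE150 library, a pattern shown by 369 of all genes (1.84%). The opposite pattern was shown by 29 genes (0.145%), none of them in the set. Below the threshold of 3, KYSE150 libraries had 3 to 7 peaks at EGLN3 of height 2 at most and 1 to 3 peaks at CA9 of height 1. At ALDOC there were 1 or 2 peaks of height 1 in control libraries 1 and 2 and none in the other 4 KYSE150 libraries. BNIP3, just inside the threshold in 2 libraries, had tallest peaks of height 1 or 2 in the other 4.

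EGLN3 had 3 regions that were present in all KYSE510 and no KYSE150 libraries. The tallest, chr14:33950655-33951373 in the submitters' GRCh38 coordinates, overlaps the annotated start and had a median height of 26.5 in KYSE510. The others lay 12052 and 19066 bases downstream inside the gene, with medians of 13.0 and 3.5. The CA9 region (chr9:35673195-35674052) and the ALDOC region (chr17:28576772-28577336) also overlap a start, and the ALDOC region lies within 1 kb of SPAG5 as well. Within 500 kb of EGLN3 KYSE150 lists had 15 to 23 peaks of height 3 or more and KYSE510 lists 59 to 71. The implied background of these peaks, relative to the library's median, ran from 0.600 to 1.04 in KYSE150 and from 1.06 to 1.21 in KYSE510. The lower count and background around EGLN3 in KYSE150 moved with the result, and their part in it was not tested.

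**Figure D2:**
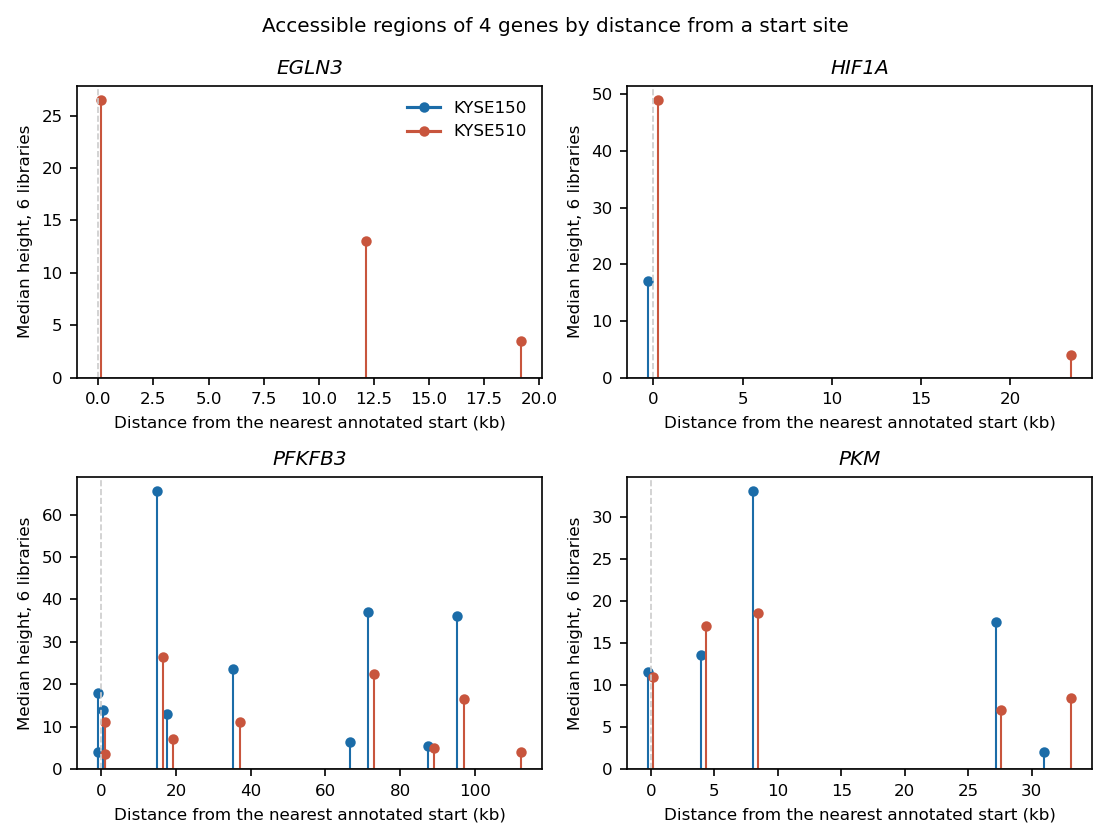
Median height over the 6 libraries of a line (vertical axis) of each accessible region of EGLN3, HIF1A, PFKFB3 and PKM, by distance in kb from the nearest annotated start of the gene (positive is downstream), KYSE150 in blue and KYSE510 in red, drawn side by side; regions with a median of 0 are not drawn. The tallest regions of EGLN3 and HIF1A lie at a start, and those of PFKFB3 and PKM lie 15.8 and 8.24 kb downstream of one.

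In control cells the lines were compared over the 12805 genes with a peak in all 6 control libraries, 27 of them in the set. Ranks among these genes were turned into normal scores, in which 1 unit is 1 standard deviation over genes, and compared with limma. Of the 27 genes, 2 were called higher in KYSE510, against 12.3% of all genes tested, and 3 were called lower, against 11.4%. The share of the set was thus close to the background. The median difference was -0.08 for the set and -0.03 for all genes tested.

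HIF1A was higher in KYSE510 by 1.04 ± 0.257 score units (SE; limma adjusted p = 0.0132), with a mean percentile among tested genes of 67.3 ± 14.8 (SD, n = 3) in KYSE150 and 93.5 ± 1.64 (n = 3) in KYSE510. Its region at the start, chr14:61694943-61696120, had median heights of 17.0 in KYSE150 and 49.0 in KYSE510. Region medians here and below are over all 6 libraries of a line, control and silenced. ANKRD37 was higher by 0.71 ± 0.213 units (limma adjusted p = 0.0307), at percentile 67.3 ± 4.44 and 87.8 ± 1.02. Its single region, chr4:185395840-185397324, overlaps the start and lies within 1 kb of LRP2BP, so the peak could belong to either gene. VEGFA missed the threshold at a difference of 0.84 units (limma adjusted p = 0.0514).

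PFKFB3 was lower in KYSE510 by 1.93 ± 0.228 score units (limma adjusted p = 0.000291), at percentile 99.3 ± 0.549 in KYSE150 and 72.9 ± 1.09 in KYSE510. Its tallest region, chr10:6218695-6219514, lies inside the gene 15763 bases downstream of the nearest start, with median heights of 65.5 and 26.5. The regions farther downstream at 36175, 72161 and 96205 bases also had higher medians in KYSE150, 23.5, 37.0 and 36.0 against 11.0, 22.5 and 16.5. The region at 15763 bases held the tallest peak of each KYSE150 control library and of KYSE510 control 1. In KYSE510 controls 2 and 3 the tallest peaks, 23 and 22, lay in the region at 72161 bases, chr10:6275093-6275830. At its annotated starts alone PFKFB3 was lower by 0.98 units and was called (limma adjusted p = 0.0246), and with the 2 ends of the gene alone it was lower by 0.83 units and was not called (0.105).

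PFKP was lower in KYSE510 by 1.46 ± 0.224 units (limma adjusted p = 0.00125), at percentile 82.4 ± 3.61 and 30.2 ± 7.09. Its region chr10:3107091-3107977, inside the gene 2482 bases from a start, had medians of 22.5 and 4.5. This region held the tallest peak, alone or tied, of each KYSE150 control library. In the KYSE510 control libraries the tallest peak lay in another region inside PFKP, chr10:3090990-3091871. The medians of that region were 18.0 in KYSE150 and 9.5 in KYSE510. PKM was lower by 1.04 ± 0.274 units (limma adjusted p = 0.0181), at percentile 89.2 ± 8.41 and 60.5 ± 11.5. The PKM region chr15:72222349-72222954, inside the gene 8236 bases from a start, held the tallest peak of each KYSE150 control library. Its medians were 33.0 and 18.5, while the region at the PKM start had 11.5 and 11.0. In KYSE510 it held the tallest peak of control 3 only, with a height of 23. The tallest peak lay in the region at the start in control 1 (20) and in chr15:72226666-72227060 in control 2 (16).

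**Figure D3:**
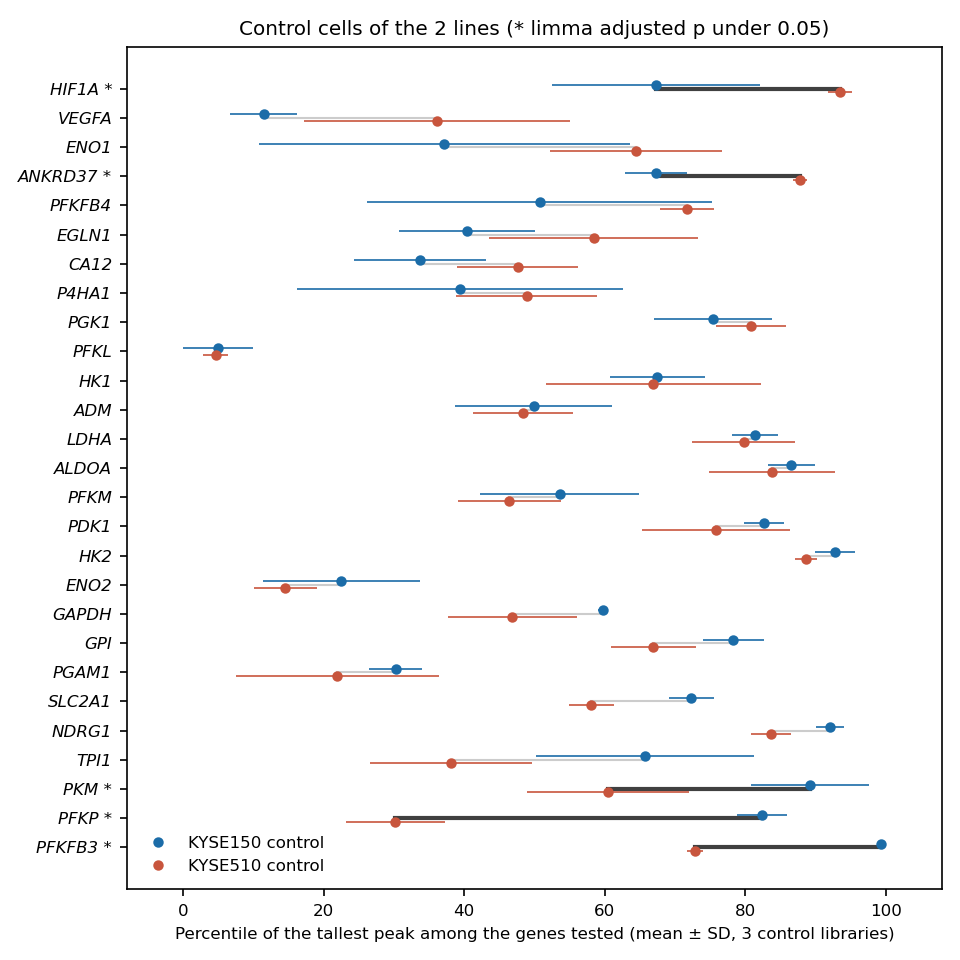
Percentile of the tallest peak among the genes tested (horizontal axis; mean ± SD of 3 control libraries) in KYSE150 (blue) and KYSE510 (red) for the 27 genes with a peak in every control library, ordered by the score difference. Asterisks and dark bars mark the 5 genes with a limma adjusted p under 0.05: HIF1A and ANKRD37 higher in KYSE510, and PFKFB3, PFKP and PKM lower.

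The calls of PFKP and PFKFB3 also passed with fold enrichment, in which the authors set the height against the local background, in place of height. With fold enrichment HIF1A (limma adjusted p = 0.178), PKM (0.113) and ANKRD37 (0.411) did not pass. The call of PKM was lost without KYSE150 control 2 or 3, or without KYSE510 control 1 or 2, with adjusted p of 0.0567 to 0.0684. That of ANKRD37 was lost without KYSE150 control 1 or 2 or any one of the KYSE510 controls, with 0.0647 to 0.0836. The implied background within 500 kb, relative to the library, went the same way as the height for 4 of the 5 genes. At PFKFB3 it ran from 1.07 to 1.64 in KYSE150 libraries and from 0.778 to 0.944 in those of KYSE510. The corresponding ranges were 1 to 1.23 and 0.647 to 0.778 at PFKP, 1.07 to 1.27 and 1.35 to 1.75 at HIF1A, and 0.633 to 1.07 and 1.11 to 1.44 at ANKRD37. At PKM the ranges overlapped, 1.13 to 1.80 and 1.06 to 1.72. DNA copy number was not analysed here, and the part of the local background in these differences was not tested.

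The 3 ranks of a line lay wholly above those of the other for 10 of the 27 genes. KYSE510 was the higher for ANKRD37, HIF1A and VEGFA, 3 genes against 20% of all genes tested. KYSE150 was the higher for GAPDH, GPI, NDRG1, PFKFB3, PFKP, PKM and SLC2A1, 7 genes against 20.5%. Genes without a peak in every control library could not enter this comparison. ALDOC, ANGPTL4, BNIP3, CA9 and EGLN3, which lacked a peak in some control library, are described by their heights alone.

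HCP5 silencing gave no call in the set. In KYSE150, 0 of the 27 genes tested passed, against 0% of 12196 genes, and in KYSE510 0 of 31, against 0% of 14553. At an unadjusted p under 0.05, limma gave 1 of the 27 genes in KYSE150, in the lower direction. Over all genes there 330 (2.71%) were higher and 316 (2.59%) lower. In KYSE510 it gave 3 of the 31, all higher. Over all genes there 546 (3.75%) were higher and 442 (3.04%) lower. In KYSE150, 12 of the 27 genes were higher and 15 lower after silencing, with a median difference of -0.01 units and of 0.00 over all genes. In KYSE510, 16 of 31 were higher and 15 lower, with medians of 0.03 and 0.00.

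The 3 smallest p-values of the set in KYSE150 belonged to TPI1 (-0.84 ± 0.375 units, limma adjusted p = 0.923), PFKM (-0.45 ± 0.264, 0.968) and EGLN1 (-0.34 ± 0.251, 0.968). None passed, and PFKM had the opposite sign, 0.31, at its annotated starts alone. Single libraries moved these values: TPI1 was at -0.46 without KYSE150 silenced 2, and without KYSE150 control 3 PFKM was at -0.28 and EGLN1 at -0.19. In KYSE510 they belonged to CA9 (0.998 ± 0.229, limma adjusted p = 0.486), TPI1 (0.67 ± 0.221, 0.671) and GAPDH (0.47 ± 0.212, 0.731). The mean percentile of CA9 among tested genes was 6.11 ± 2.11 (SD, n = 3) in control and 29.3 ± 11.7 (n = 3) in silenced KYSE510 libraries. CA9 had the largest difference of the set with silencing in KYSE510 and did not pass the test across genes.

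The 3 silenced ranks lay wholly above the control ranks in KYSE150 for SLC2A1, 1 gene of 27 against 5.25% of all genes, and wholly below for ALDOA and EGLN1, 2 genes against 4.87%. In KYSE510 they lay above for CA9, GAPDH, PFKFB3 and TPI1, 4 genes of 31 against 6.18%, and below for none, against 5.94%. No gene of the set was among those of both lines.

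**Figure D4:**
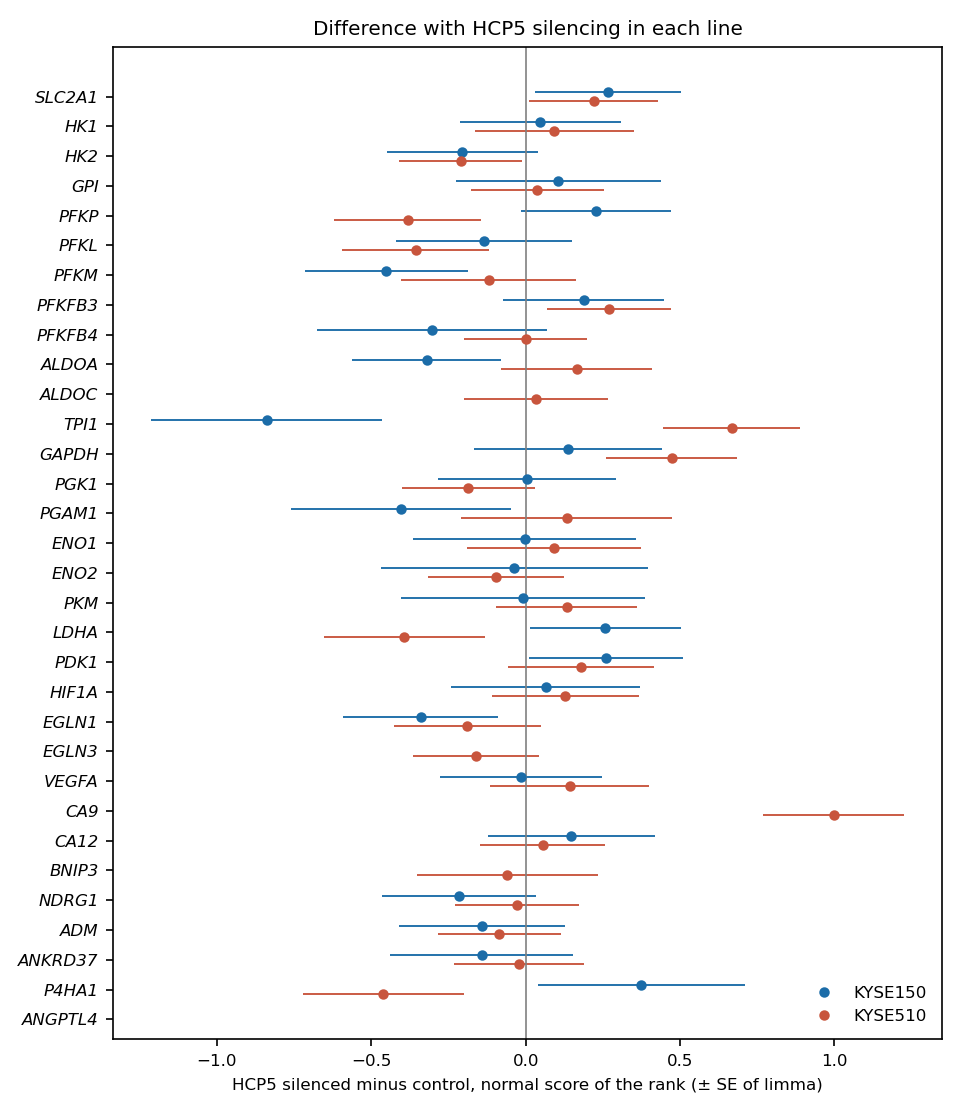
Difference between HCP5-silenced and control libraries in the normal score of the rank (horizontal axis; points are limma estimates, bars ± 1 SE, 3 libraries a group) in KYSE150 (blue) and KYSE510 (red). Genes without a point lacked a peak in some library of that line. CA9 in KYSE510 and TPI1 in both lines, with opposite signs, lie farthest from 0, and no difference passed at an adjusted p under 0.05.

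The difference between the lines in the effect of silencing was tested over 11895 genes, 27 of them in the set, and 0 passed in the set, against 0% of all genes. At an unadjusted p under 0.05, limma gave 1 of the 27, in the positive direction. Over all genes 324 (2.72%) were in the positive and 296 (2.49%) in the negative direction. TPI1 had the smallest p of the set, with an effect 1.58 ± 0.474 units higher in KYSE510 than in KYSE150 (limma adjusted p = 0.746). P4HA1 (-0.89 ± 0.464, limma adjusted p = 0.938) and PFKP (-0.65 ± 0.342, 0.938) came next, and PFKP was at -0.43 without KYSE510 silenced 1. The tallest TPI1 region, chr12:6871508-6871928, lies past the 3′ end of TPI1, 3403 bases from its nearest start and within 1 kb of SPSB2, so these values need not describe the TPI1 promoter.

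Across the set, the tallest region was often not at a start listed in the promoter table. Merged over the 12 libraries, it overlapped an annotated start for 14 of the 30 genes with one and lay more than 1 kb from it for 15, and it lay within 1 kb of another gene for 11 of all 32. The tallest regions of GPI and PGAM1, which are among the 15, and of GAPDH cover the 5′ end of the RefSeq gene span. The counts thus depend on which starts are listed. Per library, the tallest peak was within 1 kb of a start for 38.5 to 56.0% of the set in KYSE150 and 44.8 to 60.0% in KYSE510. Over all genes these shares were 58.4 to 61.2% and 56.3 to 60.2%. PDK1 had its tallest region 136797 bases from a start in a gene of 168940 bases.

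The windows of the 32 genes held 278 separate regions in all. Of these, 50 (18.0%) were present in all 12 libraries, against 9.56% of the 150354 regions in the windows of all genes. There were 9 regions in all KYSE510 and no KYSE150 libraries (3.24%), against 3.09% of all regions: 3 at EGLN3, 2 at EGLN1, and 1 each at SLC2A1, PKM, ALDOC and CA9. The 2 at EGLN1 (chr1:231383516-231383887 and chr1:231405903-231406255) lie inside the gene, with median heights of 10.0 and 7.5. The opposite pattern was met at 3 regions (1.08%), against 0.337% of all regions: 1 at HK1 (chr10:69340760-69341144) and 2 at HK2 (chr2:74851161-74851654 and chr2:74864896-74865791). Their KYSE150 medians were 6.0, 6.5 and 8.5, and HK1 and HK2 had another 5 and 4 regions in all 12 libraries.

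Of 61 other genes of the same pathways, 42 had a peak in every KYSE150 library, where 60.9% of all genes did, and 52 in every KYSE510 library, where 72.6% did. Of 29 other hypoxia targets, 24 had a peak in every KYSE150 library and 27 in every KYSE510 library, with median percentiles of 69.3 and 70.4, near the 69.9 and 72.9 of the set. The 12 other glycolysis and lactate genes had 11 in each line, with median percentiles of 64.8 and 62.2. The 14 tissue-restricted isoforms and gluconeogenic enzymes, such as PCK1, had a peak in every library for 3 genes in KYSE150 and 9 in KYSE510, with median percentiles of 31.3 and 30.0. Among the 61, PDK4, a relative of PDK1, had no peak in any library. None of the 61 was called with silencing in either line. Between the control cells, of 46 tested, 5 were higher in KYSE510 (EDN1, GAPDHS, GYS1, PFKFB2 and PKLR) and those lower included HILPDA, SLC16A1, SLC2A14 and SLC2A3. PFKFB2, another isoform of the PFKFB family, was higher by 1.52 ± 0.277 units (limma adjusted p = 0.00312), the direction opposite to PFKFB3. SLC2A3 and SLC16A1, a glucose and a lactate transporter, were lower by 0.84 and 1.28 units (limma adjusted p = 0.0355 and 0.00365).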

How the data were processed

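Chromatin of 12 libraries was measured by ATAC-seq. The authors deposited 1 peak list per library. Per the file headers, each peak has a height (pileup), a signal in whole numbers, a fold enrichment, which is a ratio to the local background, and a p-value with its FDR, none of them scaled between libraries; the largest deposited p-value was 0.00987. Trimmomatic 0.36, Bowtie2 2.2.6, Picard 2.8.2, MACS2 2.1.1, bedtools 2.25.0 and GRCh38 are named in the submitters' processing notes, without settings. Depth is unknown, so no counting interval was computed.

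Groups came from the labels. Peaks of height 3 or more were joined to RefSeq protein-coding genes (GRCh38.p14) with 1 kb on each side. Normal scores of ranks among genes with a peak in all libraries compared were fitted with limma 3.58.1 (R 4.3.3; lmFit, eBayes), with Benjamini-Hochberg adjustment over all genes and a threshold of 0.05, after tests on simulated data. Regions are peaks merged over libraries where they overlapped by 1 base. Python 3.11.15, numpy 2.4.6, pandas 2.3.3 and matplotlib 3.10.9 were used. Genes named with single heights were the 5 highest and 5 lowest, those lacking a peak somewhere, and those with the 3 smallest p or a call in a comparison. The genes and lists were chosen with earlier results of these data known. Alternatives are given in the closing section. Some results on other genes of the pathways are not reported here.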

Additional observations from a re-analysis of the deposited data

How the results depend on the processing

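No silencing or interaction setting gave a call in the set; over all genes, fold enrichment in place of height gave 1 call in KYSE510, and the other settings, leaving out each library included, gave 0. Between control lines, the 3040 calls became 4869 with all 12 libraries and treatment as a covariate, 1250 at annotated starts, 1435 at gene ends and 1526 with fold enrichment, and 2080 to 2459 leaving out each library. Calls in the set, 5, became 10, 3, 3 and 2 under those settings, 8 with no minimum height and 3 to 7 leaving out each library. They also became 8 with a peak in 3 of 6 libraries and a missing peak ranked lowest, which fixes the direction of ALDOC, CA9 and EGLN3. The calls this added, at EGLN3, ALDOC and BNIP3, rest on KYSE150 control peaks that were missing or of height 3 and lend no support. CA9 was not called there (limma adjusted p = 0.127). Genes of the set whose groups did not overlap changed with fold enrichment to 2 higher (LDHA, PFKFB3) and 1 lower (PFKM) in KYSE150. They changed to 1 higher (CA9) in KYSE510 and 1 higher (ANKRD37) between lines. At gene ends they changed to 1 lower (LDHA) in KYSE510 and 4 lower between lines. In the main setting the shares over all genes were 4.87 to 6.18% a direction with silencing and 20 to 20.5% between lines. The shares under the other settings are not reported here, so these counts are not read as results about the set. With silencing in KYSE150, PFKM turned to 0.31 at annotated starts and 0.32 at gene ends. Same-numbered libraries of a line shared little (correlation of deviations 0.0177 to 0.0782), so the numbers were not taken as pairs. A replicate block gave 0 calls for silencing in each line and for the interaction, and 3117 between lines, 6 of them in the set; every control library correlated best with its own number, a hint from the data and not the design. The cause of these shifts was not tested; at starts and ends fewer genes were tested.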
